A study of Mus musculus with 9 samples.

Results

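The genes described here are those that the deposited table places on the purine metabolism or the pyrimidine metabolism map, the pathways by which cells build, interconvert, salvage and break down nucleotides. Of 6462 listed genes, 88 carried at least 1 of these maps. Leaving out the 9 that also carried the DNA replication map gave 79, and leaving out 9 with a mean below 1 FPKM (fragments per kilobase of transcript, scaled to library size) and, by name, Entpd1 and Cmpk2 gave 68 genes. All 68 were among the 5643 genes tested. The purine map alone held 34 of them, the pyrimidine map alone 9, and both maps 25. The rule used the mean level over all libraries and no difference between groups. Just inside the limit were Upp1 with a mean of 1.014 FPKM, Adcy9 with 1.947 and Ak1 with 2.576, and just outside it were Ak8 with 0.8755, Cda with 0.8505 and Hddc3 with 0.7182.

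RNA came from BV2 cells, an immortalized mouse microglial line whose tissue of origin is labelled brain. Each group had 3 libraries: untreated cells (0 h), and cells given lipopolysaccharide (LPS, a bacterial cell wall molecule sensed through Toll-like receptor 4) at 200 ng/ml for either 1 h or 12 h. All 9 libraries are of this line alone. The labels do not say that replicate libraries are from different cultures, so p-values measure the spread between these libraries, which may be technical. Differences are given in log2(FPKM + 1), and a gene was called higher or lower at a Benjamini-Hochberg adjusted p under 0.05 from limma over all 5643 tested genes.

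The table lists genes that its authors had selected for a difference among these samples, so a large share of all tested genes passes any comparison, and counts below are read against that share. Summed FPKM over listed genes did not overlap between groups: untreated libraries had 195872 to 198075, libraries of 1 h had 203515 to 205413 and those of 12 h had 223720 to 228207. Log2 values correlated across genes at 0.9981 to 0.9986 within groups and 0.9241 to 0.9698 between groups. Of 15 microglia and macrophage markers, 11 were in the table, among them Csf1r, Itgam, Cx3cr1 and Trem2. The summed FPKM of the 11 was 1694 to 1833 without LPS, 1615 to 1649 after 1 h and 1524 to 1583 after 12 h. Single markers moved in both directions. Of the 10 tested, 3 were higher (30%) and 6 lower (60%) at 12 h, against 41.1% and 40.6% of all tested genes. Itgam rose from 27.9 ± 0.696 to 70.3 ± 2.43 FPKM, and Trem2 fell from 90.5 ± 2.68 to 47.5 ± 1.80. None of the 7 markers each for astrocytes, neurons or fibroblasts and endothelium was in the table, and of 7 for oligodendrocytes only Olig2 was, at 0 to 0.0841. A marker with a constant level would be missing from the table too, so absence from it does not show absence from the cells. The part of these marker and total shifts in the results below was not tested. In bulk RNA, fewer cells in a given state and less RNA per cell cannot be told apart.

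De novo purine synthesis assembles the purine ring on phosphoribosyl pyrophosphate, made by the Prps enzymes, and ends at IMP, from which separate branches lead to AMP and to GMP. De novo pyrimidine synthesis makes orotate, which Umps turns into UMP, and CTP synthase then makes CTP from UTP. Ribonucleotide reductase turns ribonucleotides into deoxynucleotides, salvage enzymes such as Aprt recover free bases, and breakdown enzymes such as Pnp and Xdh lead purines to urate. The maps also hold enzymes that make and destroy cyclic AMP and cyclic GMP, and the subunits of the RNA polymerases, which consume nucleotides. In macrophages and microglia, cyclic AMP restrains the inflammatory response, and Pde4b is known as a phosphodiesterase induced by LPS.

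The start regions of these genes were read from RefSeq (GRCm38.p6, 250 bases before to 50 after each annotated start), where 61 of the 68 genes had an entry. The letters CACGTG, the E-box core that Myc, Max and their relatives recognize, stood in the window of 9 of the 61 (14.75%), against 12.41% of the 5252 genes of the table with an entry and 8.09% of all 27025 genes with one. The word is its own reverse complement, so both strands hold it. The sites follow in 30 bases each, written 5′ to 3′ on the gene's strand with the E-box core in capitals, because they include genes of several steps that later moved in opposite directions.
Paics (chr5:76951087-76951116, plus strand): cgcctcggaaagCACGTGgagggacctgct
Atic (chr1:71557137-71557166, plus strand): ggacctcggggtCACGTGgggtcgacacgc
Impdh2 (chr9:108560314-108560343, plus strand): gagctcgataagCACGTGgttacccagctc
Dtymk (chr1:93802065-93802094, minus strand): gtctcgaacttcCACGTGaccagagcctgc
Ak4 (chr4:101419477-101419506, plus strand): tcccactctgccCACGTGcggggaccggca
Nme1 (chr11:93968273-93968302, minus strand): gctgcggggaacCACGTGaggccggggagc
Nme1 (chr11:93968037-93968066, minus strand): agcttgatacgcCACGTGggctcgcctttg
Ampd3 (chr7:110772514-110772543, plus strand): ccagcagtgggtCACGTGtcagctctgtaa
Polr3c (chr3:96727659-96727688, minus strand): gcccgcaagggtCACGTGagtccgcccggc
Polr3gl (chr3:96594358-96594387, minus strand): ttctggctccgcCACGTGtctggatgagct
The cores began from 237 bases (Polr3c) to 7 bases (Atic) before the annotated start. At 12 h, 5 of these 9 genes were lower than in untreated cells (Impdh2, Atic, Paics, Dtymk and Polr3gl), 3 were higher (Nme1, Ampd3 and Polr3c) and Ak4 was not called. Of the 52 genes with an entry and no CACGTG, 19 were lower and 19 higher. Over all tested genes, 40.6% were lower and 41.1% higher at 12 h. Whether the motif goes with a direction was not tested. The Paics core lies inside the annotated Ppat gene, because Ppat and Paics start on opposite strands 276 bases apart with overlapping 5′ ends. Whether reads were counted by strand is not given in the sources used here, so the values of this overlapping pair carry that uncertainty. The E2F-like letters TTTCGCGC, searched on both strands, stood in 0 of the 61 windows (0.89% of the table's genes and 0.37% of all genes). The letters GAAA followed after 2 bases of any kind by GAAA, as in interferon-stimulated response elements and again on both strands, stood in 2, Pde1b and Cmpk1 (3.28%, against 4.7% and 3.99%).

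At 1 h, the test called 13 of the 68 genes higher (19.1%) and 19 lower (27.9%), and left 36 uncalled. Over all tested genes, 59.0% were called in this comparison, 24.1% higher and 34.9% lower. The groups of 3 libraries did not overlap in 38 of the 68 genes, against 65.0% of all genes. The median difference was -0.0067 for the 68 genes and -0.035 for all genes.

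Against untreated cells, 12 h of LPS gave 25 higher (36.8%) and 26 lower (38.2%) genes, against a background of 81.7% called, 41.1% higher and 40.6% lower. Groups did not overlap in 50 genes, against 82.8% of all genes. The median difference was 0.012, and 0.030 for all genes. Under quantile normalization, which forces every library onto the same distribution of values, the split at 12 h became 17 higher and 35 lower, so that 32.7% of called genes were higher where 49.0% had been. Over all 5643 tested genes, the same setting turned 2318 higher and 2293 lower into 2129 and 2453. The median of the 68 genes then was -0.094, and that of all genes -0.018. Of the 51 called differences at 12 h, 21 moved by more than 1.5 times under quantile normalization, 4 of these keeping their sign but not their call and 5 changing sign.

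From 1 h to 12 h, 26 genes rose (38.2%) and 36 fell (52.9%), against a background of 85.5% called, 41.9% higher and 43.6% lower. Groups did not overlap in 63 of the 68 genes, against 86.6% of all genes. The median difference was -0.10, and 0.0065 for all genes. An F test over the 3 groups called 64 of the 68 genes, against 94.3% of all genes; Adss, Adsl, Prps1 and Cmpk1 were the 4 it did not call.

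Most of these differences were small. A log2 difference of at least 1 was reached at 1 h by Pde4b alone, at 12 h by Upp1 and Pde4b upward and Adssl1 downward, and between 1 h and 12 h by Upp1 upward and Pde4b downward. Upp1, which the counts above include, passed the limit on level only through its 12 h libraries. The median of the 68 genes' mean levels was 21.8 FPKM, against 12.9 FPKM over all tested genes, from 1.01 FPKM for Upp1 to 1136 FPKM for Pkm, the pyruvate kinase of glycolysis that the purine map also lists. The median SD within groups on the log2 scale was 0.050 for the 68 genes and 0.056 for all genes, and Upp1, Ak1, Nme6 and Adprm had the largest.

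**Figure D1:**
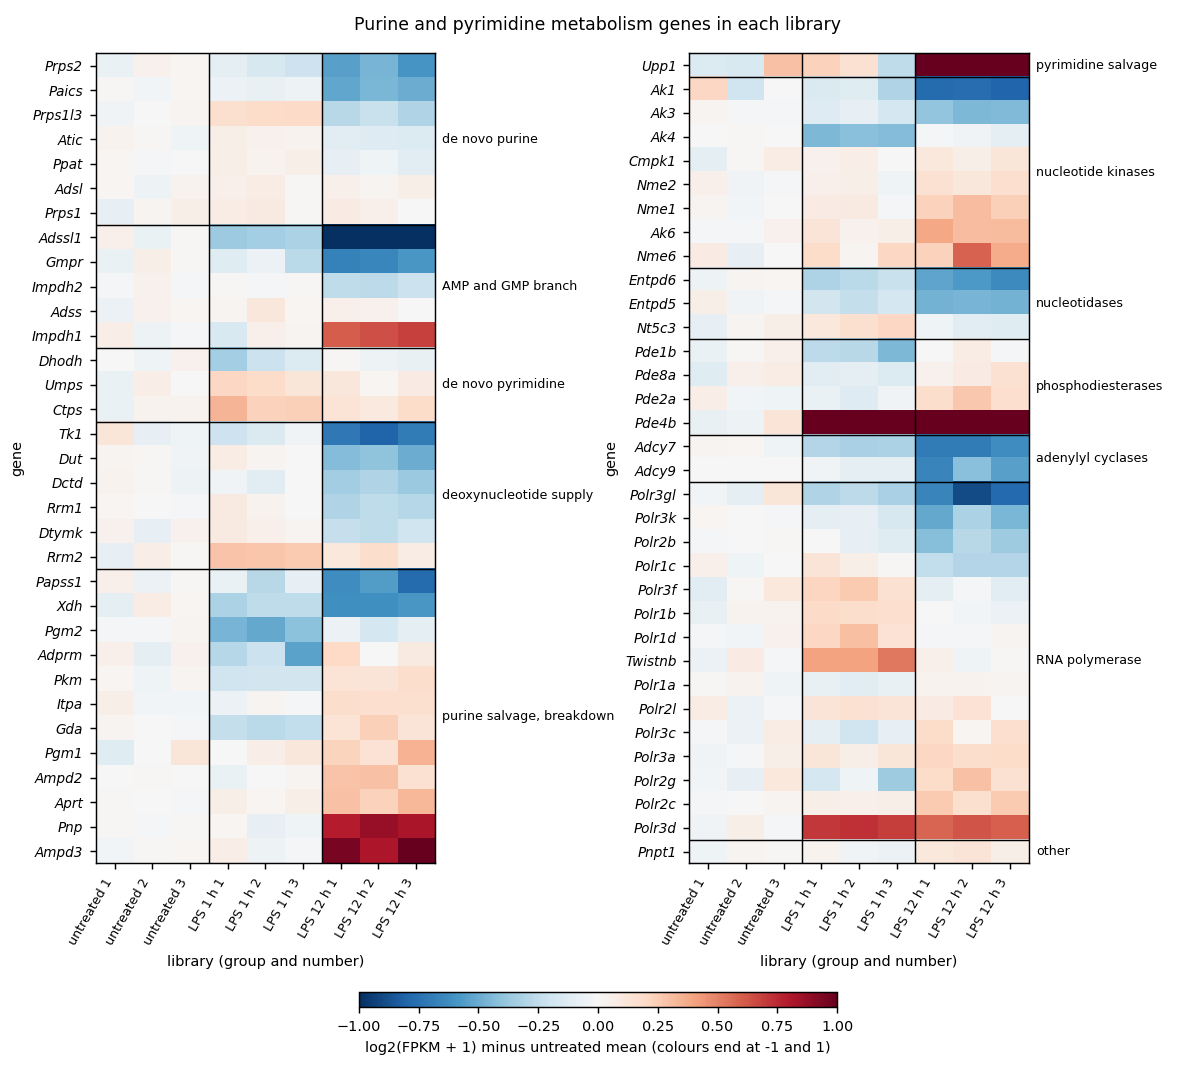
Each square is the log2(FPKM + 1) of 1 gene in 1 library minus the gene's mean in untreated cells, with red above and blue below it, for 67 of the 68 genes grouped by role (right labels) and the 9 libraries (columns); colours end at -1 and 1. The 3 libraries of a group look alike, Pde4b is deep red from 1 h, and Upp1, Ampd3, Pnp and Impdh1 are strongly red in the 12 h libraries only.

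De novo purine synthesis had 7 measured genes, of which 5 were lower at 12 h (71.4%) and none was higher, against 40.6% of all tested genes lower and 41.1% higher. Paics, which carries out 2 middle steps of the pathway (named in its product as carboxylase and synthetase), had 133, 129 and 133 FPKM in the untreated libraries, 127, 125 and 127 at 1 h and 91.9, 95.5 and 93.4 at 12 h. The 12 h libraries were all below the other 6, while the 1 h values sat just under the untreated ones. The difference at 12 h was -0.49 ± 0.027 (SE, adjusted p = 4.29e-10), and at 1 h it was -0.060 and not called (adjusted p = 0.0663). That 1 h difference was called under quantile normalization (-0.15, 0.000371) and without the filter on level (0.0447). Ppat, the amidotransferase that commits phosphoribosyl pyrophosphate to purines, had 37.8, 36.9 and 37.3 FPKM untreated, 39.0, 38.3 and 39.0 at 1 h and 35.2, 36.1 and 34.7 at 12 h. Its 12 h difference was -0.078 ± 0.030 (SE, adjusted p = 0.0278). That call was lost without untreated library 1 or 3, without LPS 12 h library 1 or 3 (adjusted p from 0.0553 to 0.0964) and on adjustment over the 21878 genes implied by the deposited ranks (0.108), and its size was -0.18 under quantile normalization. Atic, which closes the ring to IMP, fell from 162 ± 4.19 FPKM (mean ± SD, n = 3 as in all such values here) to 148 ± 1.66 at 12 h, by 0.12 on the log2 scale (adjusted p = 0.000682; -0.33 under quantile normalization).

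The Prps genes, whose product feeds both purine and pyrimidine synthesis, did not share a direction. Prps2 fell from 20.01 ± 0.791 FPKM to 17.9 ± 0.699 at 1 h and 13.6 ± 0.649 at 12 h, with log2 differences of -0.15 ± 0.045 (SE, adjusted p = 0.00885) and -0.53 ± 0.045 (SE, adjusted p = 5.45e-08). Prps1 had 69.1, 72.0 and 71.4 FPKM in the 3 groups and was not called in any comparison (adjusted p = 0.203 at 1 h and 0.272 at 12 h), though quantile normalization gave a difference of -0.098 at 12 h. Prps1l3, a near copy of Prps1 whose reads could be divided between them, was higher at 1 h (0.18, or 0.12 under quantile normalization) and lower at 12 h (-0.27), and its values are uncertain for that reason. Adsl, the lyase that acts both in this pathway and in the AMP branch, had 41.4, 42.7 and 42.8 FPKM and was not called.

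From IMP, the AMP branch runs through adenylosuccinate synthetase, encoded by Adss and by Adssl1. Adssl1 had 50.2, 46.2 and 48.6 FPKM in untreated libraries, 37.4, 37.9 and 38.6 at 1 h and 18.8, 19.1 and 18.2 at 12 h. No library of a group overlapped with another group, and each later group was lower. The log2 differences from untreated cells were -0.34 ± 0.036 (SE, adjusted p = 2.23e-06) at 1 h and -1.32 ± 0.036 (SE, adjusted p = 2.35e-13) at 12 h, the latter the lowest of the 68 genes. Adss had 57.6, 59.8 and 58.8 FPKM with no call, although quantile normalization gave -0.12 at 12 h with an adjusted p of 0.00626. As a description of this pair, chosen after the values were seen, Adssl1 made up 45.6% of their summed FPKM in untreated cells, 38.8% at 1 h and 24.1% at 12 h.

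The GMP branch begins with IMP dehydrogenase, for which Impdh2 was the more abundant gene per length. Impdh1 had 14.1, 12.98 and 13.3 FPKM untreated, 12.0, 13.97 and 13.7 at 1 h and 21.0, 21.6 and 22.2 at 12 h. Untreated and 1 h libraries overlapped, and the 12 h libraries were all higher. The 12 h difference was 0.64 ± 0.052 (SE, adjusted p = 3.51e-08). Impdh2 had 158, 164 and 157 FPKM untreated, 161, 158 and 161 at 1 h and 134, 133 and 137 at 12 h. Its 12 h libraries were all lower than the other 6, with a difference of -0.24 ± 0.027 (SE, adjusted p = 9.26e-07), or -0.45 under quantile normalization, which also gave -0.091 at 1 h. As a description, Impdh1 made up 7.79% ± 0.453 of the pair's FPKM in untreated cells, 7.63% ± 0.614 at 1 h and 13.8% ± 0.208 at 12 h. Gmpr, the reductase that returns GMP to IMP, fell from 11.5 ± 0.525 to 7.06 ± 0.283 FPKM at 12 h (-0.64, SE 0.056, adjusted p = 7.99e-08). Its 1 h difference of -0.15 passed the test (adjusted p = 0.0325) with overlapping groups, and was -0.090 and not called (0.165) without LPS 1 h library 3, and not called either without LPS 1 h library 1, untreated library 2 or untreated library 3 (0.0505 to 0.116), without the filter on level (0.0542) or over the implied genes (0.126).

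Because Impdh1 and Impdh2 moved in opposite directions at the same step, the 250 bases before the annotated start of each are shown, 5′ to 3′ on the gene's strand, with CACGTG in capitals. For Impdh1 the outer of its 2 listed starts is used.
Impdh1 (chr6:29216365-29216614, minus strand): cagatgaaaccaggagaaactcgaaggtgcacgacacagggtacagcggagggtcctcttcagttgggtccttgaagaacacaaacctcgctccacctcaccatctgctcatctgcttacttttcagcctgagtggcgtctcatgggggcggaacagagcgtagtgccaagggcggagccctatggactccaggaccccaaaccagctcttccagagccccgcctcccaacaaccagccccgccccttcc
Impdh2 (chr9:108560186-108560435, plus strand): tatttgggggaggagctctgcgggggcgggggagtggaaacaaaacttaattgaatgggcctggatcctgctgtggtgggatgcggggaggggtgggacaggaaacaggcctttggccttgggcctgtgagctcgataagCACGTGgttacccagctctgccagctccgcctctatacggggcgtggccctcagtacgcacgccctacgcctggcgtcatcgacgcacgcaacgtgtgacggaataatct
These windows overlapped no other gene of the RefSeq list. The window of Impdh2 holds 1 E-box core, beginning 110 bases before the start, and that of Impdh1 holds none. The share of G and C was 59.2% for Impdh1 and 60.8% for Impdh2. Before the inner start of Impdh1, which lies within the gene, it was 69.6%. Which of these starts the cells use was not tested.

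**Figure D2:**
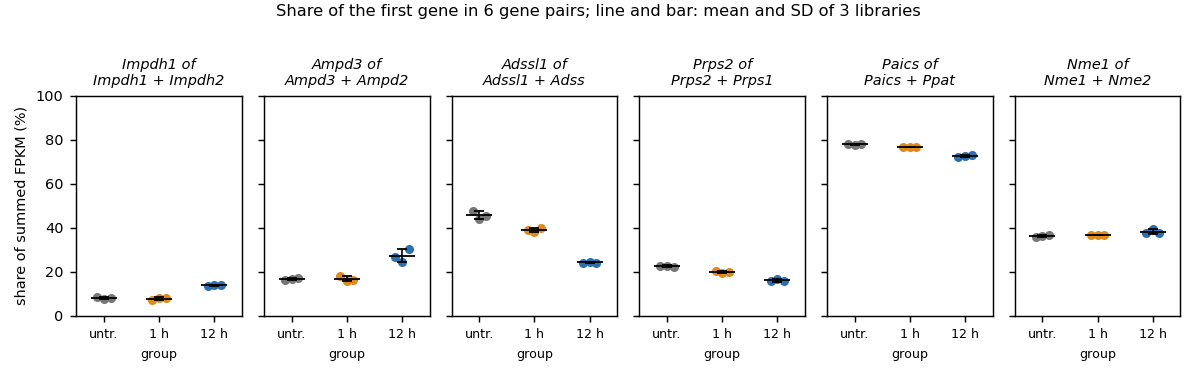
Points are libraries, and the line and bar are the mean and SD of 3 libraries, for the share (%) of the first gene in the summed FPKM of 6 pairs that act at the same step or lie side by side; groups are on the horizontal axis. The share of Impdh1 and of Ampd3 is highest at 12 h, that of Adssl1, Prps2 and Paics is lowest at 12 h, and that of Nme1 is 36.76% in all 3 libraries at 1 h.

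De novo pyrimidine synthesis was represented by 3 genes. At 1 h all 3 were called, 2 higher and 1 lower, where 59.0% of all tested genes were called. Dhodh, the mitochondrial dehydrogenase that makes orotate, had 14.1, 13.7 and 14.6 FPKM untreated, 11.0, 12.0 and 12.7 at 1 h and 14.3, 13.6 and 13.4 at 12 h. It fell at 1 h by 0.23 on the log2 scale (SE 0.050, adjusted p = 0.00129) and at 12 h overlapped with untreated cells (-0.038, not called). Umps had 33.8, 37.01 and 35.4 FPKM untreated and 40.9, 40.3 and 38.5 at 1 h, a rise of 0.17 ± 0.039 (SE, adjusted p = 0.00232), or 0.11 under quantile normalization. By 12 h it stood at 38.3, 35.9 and 37.6 FPKM, not called against untreated cells except without LPS 12 h library 2 or untreated library 2 (0.098 and 0.10, adjusted p = 0.0483 and 0.0338). The fall of Umps from 1 h to 12 h (-0.095, adjusted p = 0.0359) was not called without LPS 1 h library 1 or 2 or LPS 12 h library 2 or 3 (0.0517 to 0.140), without the trend in the spread (0.0583) or over the implied genes (0.139).

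Ctps, the synthase that makes CTP, had 22.6, 24.2 and 24.2 FPKM untreated, 30.2, 28.0 and 28.1 at 1 h and 26.1, 25.4 and 27.00 at 12 h. All libraries with LPS were above the untreated ones. The rise was 0.27 ± 0.041 (SE, adjusted p = 6.72e-05) at 1 h and 0.14 ± 0.041 (SE, adjusted p = 0.00575) at 12 h. The latter was 0.071 and not called under quantile normalization, and the fall from 1 h to 12 h (-0.13) was -0.097 and not called without LPS 1 h library 1 (adjusted p = 0.0507). Cad, which carries out the opening steps of this pathway, was not analysed here.

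Genes that supply deoxynucleotides for DNA fell between 1 h and 12 h in 6 of 6 cases, and 5 of 6 (83.3%) were lower at 12 h than in untreated cells, against 43.6% and 40.6% of all tested genes lower in these comparisons. Tk1, the thymidine kinase of the S phase, had 12.8, 11.0 and 11.3 FPKM untreated, 9.99, 10.5 and 11.4 at 1 h and 6.73, 6.25 and 6.78 at 12 h. The 12 h libraries were well below the others, with a difference of -0.74 ± 0.059 (SE, adjusted p = 3.08e-08). At 1 h its difference was called only without LPS 1 h library 3 (-0.17, adjusted p = 0.0319) or untreated library 2 (-0.17, 0.0404). Dut, which destroys dUTP and so keeps uracil out of DNA, fell from 60.3 ± 1.20 FPKM to 44.1 ± 1.51 (-0.45, SE 0.033, adjusted p = 1.4e-08). Dctd, the deaminase that turns dCMP into dUMP, differed by -0.34, and Dtymk, the kinase that makes dTDP, by -0.23 (-0.39 under quantile normalization).

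The 2 ribonucleotide reductase genes parted. Rrm1, the large catalytic subunit, had 92.8, 91.9 and 90.1 FPKM untreated, 97.5, 93.8 and 91.2 at 1 h and 74.3, 76.8 and 74.9 at 12 h, a 12 h difference of -0.28 ± 0.030 (SE, adjusted p = 8.05e-07); quantile normalization made it -0.46, and gave a 1 h difference of -0.077. Rrm2, the small subunit that carries the radical, had 58.5, 65.2 and 62.6 FPKM untreated, 75.7, 75.5 and 74.8 at 1 h and 66.8, 70.3 and 65.3 at 12 h. All 1 h libraries exceeded all others, and the rise at 1 h was 0.28 ± 0.039 (SE, adjusted p = 3.52e-05). At 12 h the rise of 0.12 ± 0.039 (SE, adjusted p = 0.0116) was not called without untreated library 1 (0.077, adjusted p = 0.0656) or LPS 12 h library 2 (0.089, 0.0586), and was -0.015 under quantile normalization. The share of Rrm2 in the FPKM of the pair was 40.4% untreated, 44.4% at 1 h and 47.2% at 12 h.

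Cell cycle markers were measured beside them. Of the 22 tested, 10 were higher and 3 lower at 1 h, and 2 were higher and 16 lower at 12 h, when their median difference was -0.26. The shares called in either direction, 59.1% and 81.8%, were near those of all tested genes (59.0% and 81.7%). By direction, 45.5% were higher and 13.6% lower at 1 h, against 24.1% and 34.9% of all tested genes. At 12 h, 9.09% were higher and 72.7% lower, against 41.1% and 40.6% of all tested genes. Under quantile normalization the 1 h counts were 4 higher and 5 lower and the 12 h counts 2 and 18. Mki67, which marks cycling cells, fell from 55.5 ± 2.68 to 28.5 ± 3.29 FPKM at 12 h (-0.94, SE 0.062, adjusted p = 3.38e-09). Another 9 pathway genes were left out because they also carry the DNA replication map. Of these, 0 were called at 1 h, against 59.0% of all tested genes. At 12 h, 7 of the 9 were lower (77.8%) and 1 higher, against 40.6% and 41.1% of all tested genes. What the cell cycle markers have to do with the deoxynucleotide genes was not tested.

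**Figure D3:**
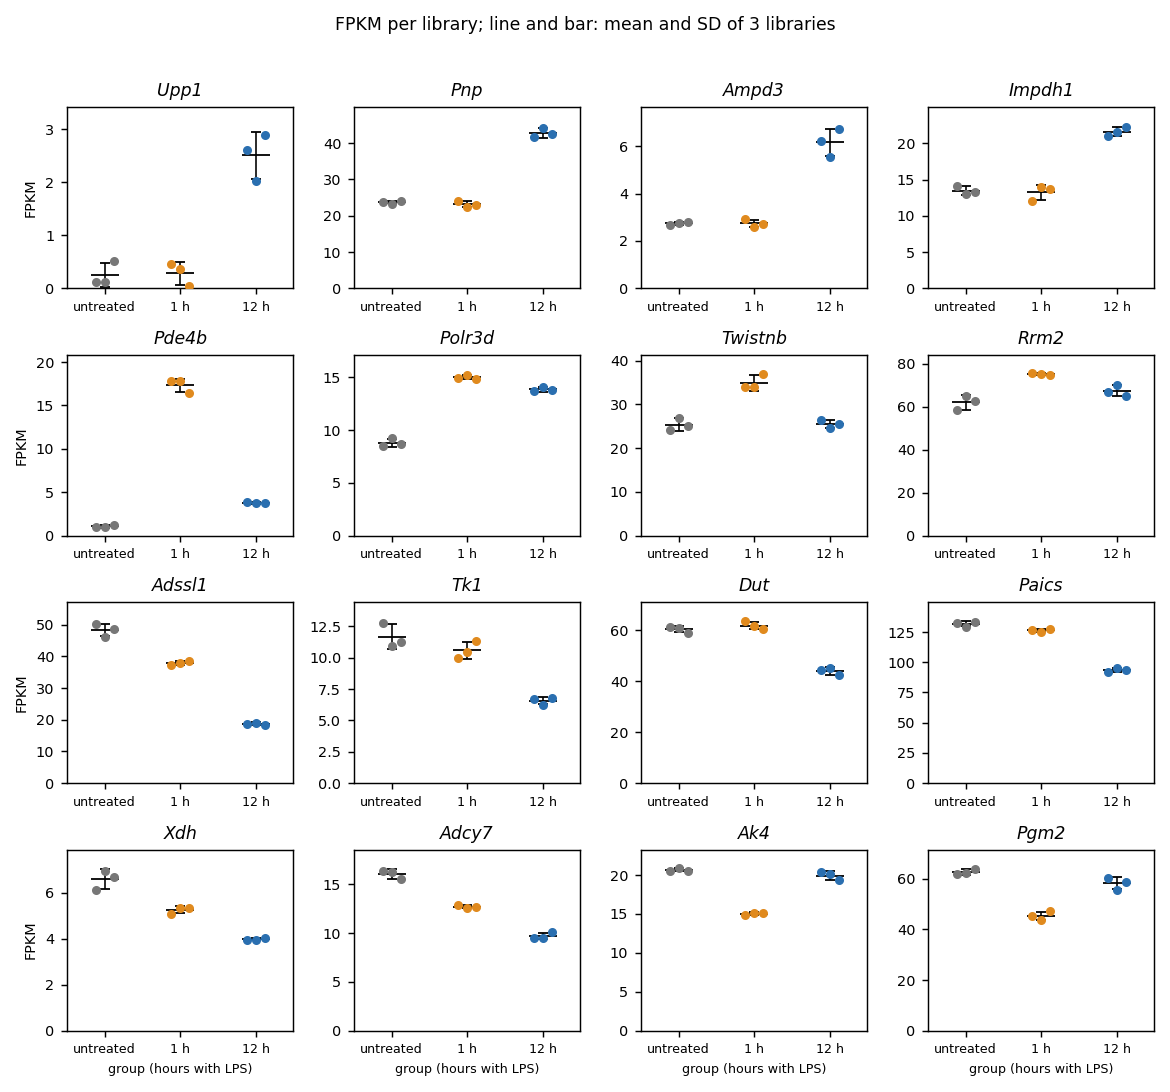
FPKM in each library (points) for 16 genes, by group, with the mean and SD of 3 libraries (line and bar); axes start at 0 and differ between genes. Upp1, Pnp, Ampd3 and Impdh1 are high at 12 h only, Pde4b and Twistnb peak at 1 h, Adssl1, Xdh and Adcy7 step down at each time, and Ak4 and Pgm2 dip at 1 h.

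Of 12 genes of purine salvage and breakdown, 8 were higher (66.7%) and 3 lower at 12 h, against 41.1% and 40.6% of all tested genes. At 1 h, 0 of the 12 were higher and 5 lower (24.1% and 34.9% of all), and from 1 h to 12 h 10 rose and 2 fell (41.9% and 43.6% of all). Under quantile normalization the 12 h count was 6 higher and 4 lower. Pnp, the phosphorylase that splits inosine and guanosine into base and ribose phosphate, had 23.9, 23.4 and 24.0 FPKM untreated, 24.0, 22.4 and 23.1 at 1 h and 41.6, 44.3 and 42.6 at 12 h. The 1 h values lay among or near the untreated ones and the 12 h values were far above both. The 12 h rise was 0.82 ± 0.036 (SE, adjusted p = 4.19e-11), 1.80 times the untreated mean FPKM.

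Ampd3, an AMP deaminase that turns AMP into IMP, had 2.67, 2.76 and 2.79 FPKM untreated, 2.91, 2.61 and 2.71 at 1 h and 6.21, 5.55 and 6.71 at 12 h. Again only the 12 h libraries stood apart, with a rise of 0.93 ± 0.061 (SE, adjusted p = 3.28e-09). Ampd2, which encodes a second AMP deaminase, rose from 13.8 ± 0.0827 to 16.6 ± 0.952 FPKM (0.25). Ampd3 made up 16.6% of the FPKM of the pair in untreated cells, 16.7% at 1 h and 27.1% ± 2.93 at 12 h. Aprt, which salvages adenine, had 329, 327 and 325 FPKM untreated and 400.0, 383 and 411 at 12 h. Its 12 h rise of 0.28 ± 0.028 (SE, adjusted p = 2.79e-07) was 0.11 under quantile normalization. Itpa, which clears inosine triphosphate, rose by 0.17 at 12 h, which was 0.059 and not called under quantile normalization.

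Xdh, which makes urate, fell while Pnp rose. Its values were 6.11, 6.95 and 6.66 FPKM untreated, 5.08, 5.34 and 5.33 at 1 h and 3.96, 3.95 and 4.04 at 12 h, with no overlap between any groups. The differences were -0.28 ± 0.050 (SE, adjusted p = 0.000344) and -0.60 ± 0.050 (SE, adjusted p = 4.86e-08). Gda, the guanine deaminase that makes xanthine, fell at 1 h from 3.05 ± 0.0638 to 2.40 ± 0.0413 FPKM (-0.25; -0.098 and not called under quantile normalization) and was higher at 12 h (3.55 ± 0.198; 0.17, or 0.32 under quantile normalization). Papss1, which makes the sulfate donor PAPS from ATP, fell at 12 h from 8.48 ± 0.361 to 5.05 ± 0.445 FPKM (-0.65, SE 0.066, adjusted p = 3.63e-07).

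Several genes of this role dipped at 1 h. Pgm2, a phosphoglucomutase gene on the purine map, had 61.98, 62.5 and 64.1 FPKM untreated, 45.3, 43.8 and 47.1 at 1 h and 60.3, 55.6 and 58.9 at 12 h, with a 1 h difference of -0.46 ± 0.037 (SE, adjusted p = 1.03e-07), the lowest of the 68 genes at that time. At 12 h it was lower by 0.11, a difference not called without LPS 12 h library 2 (adjusted p = 0.0732) or untreated library 3 (0.0538) or over the implied genes (0.0527), and -0.26 under quantile normalization. Adprm, which splits ADP-ribose, fell from 7.41 ± 0.450 to 5.64 ± 0.757 FPKM at 1 h (-0.35, SE 0.077, adjusted p = 0.00157) and stood at 7.99 ± 0.643 at 12 h. Pkm was lower at 1 h (-0.19) and higher at 12 h (0.15), and the latter turned to -0.17 under quantile normalization. Pgm1 rose at 12 h (0.24), and its rise from 1 h to 12 h (0.18) was 0.15 and not called without LPS 1 h library 1 (adjusted p = 0.0789), 0.12 and not called without LPS 12 h library 3 (0.102), and not called over the implied genes (0.0780).

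Upp1, the uridine phosphorylase that releases ribose phosphate from uridine, was the only gene of pyrimidine salvage and breakdown among the 68. Its values were 0.121, 0.111 and 0.510 FPKM untreated, 0.450, 0.370 and 0.0371 at 1 h and 2.61, 2.02 and 2.903 at 12 h. The 6 untreated and 1 h libraries were all far below 1 FPKM, and the 3 at 12 h were all above them. The mean at 12 h was 2.51 ± 0.451 FPKM against 0.247 ± 0.227 in untreated cells, a ratio of 10.2. On the log2(FPKM + 1) scale the difference was 1.5, and with a pseudocount of 0.1 it was 3.08. Upp1 reached the mean of 1 FPKM that the selection asked for only through its 12 h libraries, so it had to be higher there, and its difference is given as a description with no test. The table gives no read counts. A rough depth from 10 genes with 1 transcript was 23500000 fragments (quartiles 17500000 and 27300000), at which 1 FPKM over 1 kilobase is about 23.5 fragments, so the untreated and 1 h values of Upp1 rest on few reads.

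Nucleotide kinases had 5 higher and 2 lower of 9 at 12 h, so that 77.8% were called against 81.7% of all tested genes, a balance that quantile normalization turned to 3 higher and 6 lower. Ak4, an adenylate kinase of mitochondria, had 20.6, 20.9 and 20.6 FPKM untreated, 14.9, 15.2 and 15.1 at 1 h and 20.4, 20.1 and 19.3 at 12 h. It dipped at 1 h by 0.43 (SE 0.035, adjusted p = 1.11e-07), and at 12 h it was not called against untreated cells (-0.049), except under quantile normalization (-0.090, 0.0245). Ak1, the cytosolic adenylate kinase, had 4.002, 2.78 and 3.32 FPKM untreated, 2.93, 2.99 and 2.52 at 1 h and 1.55, 1.56 and 1.51 at 12 h, a 12 h fall of 0.77 (SE 0.085, adjusted p = 8.56e-07). Ak3, the mitochondrial enzyme that uses GTP, differed by -0.13 at 1 h and -0.43 at 12 h, whereas Ak6 was higher at 12 h by 0.34 (0.22 under quantile normalization).

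Nme1 and Nme2 encode nucleoside diphosphate kinases, which make triphosphates from diphosphates, and are closely related neighbours. Nme1 rose from 109 ± 2.08 to 131 ± 3.84 FPKM and Nme2 from 192 ± 5.90 to 213 ± 3.84 at 12 h (0.26 and 0.15); under quantile normalization these were 0.085 and -0.11. Nme1 held 36.76% of the FPKM of the pair in each of the 3 libraries at 1 h and 37.49% in 2 of the 3 at 12 h, while the levels of each gene varied more, so how reads were divided between the 2 genes is uncertain. Nme6 rose at 12 h by 0.40 (SE 0.077), with 11.7, 15.2 and 12.9 FPKM in those libraries. Its rise from 1 h to 12 h of 0.26 was 0.16 without LPS 12 h library 2. Cmpk1, the UMP and CMP kinase, was called at 12 h (0.094, adjusted p = 0.0346) with overlapping groups. It was 0.050 without untreated library 1, was not called either without untreated library 2, LPS 12 h library 1 or LPS 12 h library 3 (adjusted p from 0.0539 to 0.192 over these), and was -0.10 under quantile normalization (0.0338).

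The enzymes that remove phosphates from nucleotides were lower at 12 h in 2 of 3 cases, where 40.6% of all tested genes were lower. Entpd5 and Entpd6, nucleoside diphosphatases of the secretory pathway, were lower at both times. Entpd6 had 11.8, 12.5 and 12.4 FPKM untreated, 9.69, 9.98 and 10.3 at 1 h and 8.16, 7.86 and 7.48 at 12 h, stepping down without overlap (-0.27 and -0.58). Entpd5 differed by -0.20 and -0.47. Nt5c3, a cytosolic pyrimidine nucleotidase, rose at 1 h by 0.16, a call lost without untreated library 1 (0.12, adjusted p = 0.0519). At 12 h it was not called (10.2, 9.71 and 9.61 FPKM against 9.88, 10.7 and 11.0 untreated), except without that same library (-0.13, 0.0242).

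Cyclic nucleotide genes held the largest single change of the 68. Pde4b, the phosphodiesterase that degrades cyclic AMP, had 0.967, 1.00 and 1.27 FPKM untreated, 17.8, 17.8 and 16.4 at 1 h and 3.88, 3.73 and 3.76 at 12 h. All 3 groups were separate, with 1 h highest and 12 h in between. The mean rose 16.04 times by 1 h (3.14, SE 0.059, adjusted p = 4.99e-15 in log2) and stood 3.50 times above untreated cells at 12 h (1.20, SE 0.059, adjusted p = 1.36e-10), a fall of 1.94 between the times. The other 3 phosphodiesterases of cyclic nucleotides did not follow it: Pde1b, activated by calcium and calmodulin, fell at 1 h from 3.55 ± 0.192 to 2.63 ± 0.259 FPKM (-0.33, SE 0.061, adjusted p = 0.000396; -0.21 under quantile normalization, which also called it higher at 12 h, 0.15), Pde2a, stimulated by cyclic GMP, was higher at 12 h by 0.20, and Pde8a was not called against untreated cells at either time. Pde8a was, however, called at 1 h with array weights (-0.13), under quantile normalization (-0.13) and without untreated library 1 (-0.17, adjusted p = 0.00463), and at 12 h without untreated library 3 (0.13, 0.0384).

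Both adenylyl cyclases, which make cyclic AMP, were lower at 12 h, as were 40.6% of all tested genes. Adcy7 had 16.3, 16.3 and 15.5 FPKM untreated, 12.9, 12.6 and 12.7 at 1 h and 9.53, 9.52 and 10.1 at 12 h. The groups stepped down without overlap, by -0.31 ± 0.039 (SE, adjusted p = 1.17e-05) and -0.67 ± 0.039 (SE, adjusted p = 9.47e-10). Adcy9 had 2.36, 2.36 and 2.34 FPKM untreated and 1.12, 1.51 and 1.30 at 12 h, a difference of -0.54 ± 0.063 (SE, adjusted p = 1.74e-06), or -0.34 under quantile normalization. At 1 h its difference of -0.077 was not called.

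RNA polymerase subunits, 15 of the 68 genes, were divided. At 1 h 66.7% were called and at 12 h 60%, against 59.0% and 81.7% of all tested genes. At 1 h, 6 were higher (40%) and 4 lower (26.7%), against 24.1% and 34.9% of all. At 12 h, 5 were higher (33.3%) and 4 lower (26.7%), against 41.1% and 40.6% of all. Quantile normalization made the 12 h counts 3 and 6. From 1 h to 12 h, 4 rose (26.7%) and 9 fell (60%), against 41.9% and 43.6% of all. Polr3d, a subunit of RNA polymerase III, which makes transfer RNA and 5S ribosomal RNA, had 8.53, 9.23 and 8.64 FPKM untreated, 14.96, 15.2 and 14.8 at 1 h and 13.7, 14.1 and 13.8 at 12 h. Both LPS groups lay above all untreated libraries, by 0.71 ± 0.040 (SE, adjusted p = 1.78e-09) and 0.60 ± 0.040 (SE, adjusted p = 3.42e-09). The small fall between the times (-0.11) was not called without LPS 1 h library 2 or LPS 12 h library 1 or 3 (-0.097 to -0.10, adjusted p from 0.0512 to 0.0668), or over the implied genes (0.0831). Polr3gl, an alternative subunit of the same enzyme, went the other way, with 15.04, 14.3 and 16.8 FPKM untreated, 12.3, 12.6 and 12.0 at 1 h and 9.34, 7.78 and 8.55 at 12 h (-0.78, SE 0.062, adjusted p = 2.91e-08 at 12 h).

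Of the 5 genes Polr1a, Polr1b, Polr1c, Polr1d and Twistnb, 3 rose at 1 h, where 24.1% of all tested genes were higher. They encode subunits of RNA polymerase I, the enzyme that makes ribosomal RNA, which shares some of them with polymerase III. Twistnb, which encodes one of them, had 24.3, 26.97 and 24.98 FPKM untreated, 33.9, 33.9 and 36.96 at 1 h and 26.3, 24.6 and 25.6 at 12 h. The 1 h libraries were above all others and the 12 h libraries overlapped with untreated ones, with differences of 0.44 ± 0.046 (SE, adjusted p = 1.61e-06) and 0.0065 (not called). Polr1b (0.18), Polr1d (0.22) and, of polymerase III, Polr3f (0.21) likewise rose at 1 h and were not called at 12 h (-0.029, -0.00028 and -0.068). At 12 h, quantile normalization called Polr1b (-0.12, adjusted p = 0.00578) and Polr1d (-0.12, 0.00777) lower, and Polr3f was called lower without untreated library 1 (-0.13, 0.0306). Polr1a instead fell slightly at 1 h (-0.087, adjusted p = 0.0403), a call lost without any 1 of the 1 h libraries or without untreated library 1 or 2 (-0.071 to -0.092, adjusted p from 0.0609 to 0.134) and in 3 further settings, and Polr1c fell at 12 h (-0.28).

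Of polymerase II subunits, Polr2b, the second largest, fell at 12 h from 41.0 ± 0.330 to 31.9 ± 1.76 FPKM (-0.35, SE 0.041, adjusted p = 1.81e-06), and Polr2c rose by 0.23 (0.10 under quantile normalization). Polr2g was lower at 1 h (-0.19) with overlapping groups, 37.6, 41.1 and 32.9 FPKM against 41.8, 40.1 and 45.7, and without LPS 1 h library 3 that difference was -0.11 and not called (adjusted p = 0.128), as also without untreated library 3 (0.113). At 12 h Polr2g was higher by 0.21, or 0.087 and not called under quantile normalization. Polr2l was higher at 1 h (0.14, adjusted p = 0.0200). That call was lost without LPS 1 h library 2 or untreated library 2 or 3 (0.0566 to 0.0880) or over the implied genes (0.0777). Polr2l, Polr3a, Polr3c and Polr3k had differences at 12 h of 0.077 (not called), 0.19, 0.12 (0.072 and not called under quantile normalization) and -0.43. The Polr3c call was also lost without LPS 12 h library 1 or 3 or untreated library 1 or 2 (0.093 to 0.12, adjusted p from 0.0761 to 0.141), without the trend, without the filter and over the implied genes. The remaining gene, Pnpt1, the mitochondrial polynucleotide phosphorylase, differed at 12 h by 0.098, a call not kept under quantile normalization (-0.0053), over the implied genes, or without untreated library 1 or LPS 12 h library 1 or 2 (0.077 to 0.093, adjusted p from 0.0554 to 0.0816).

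**Figure D4:**
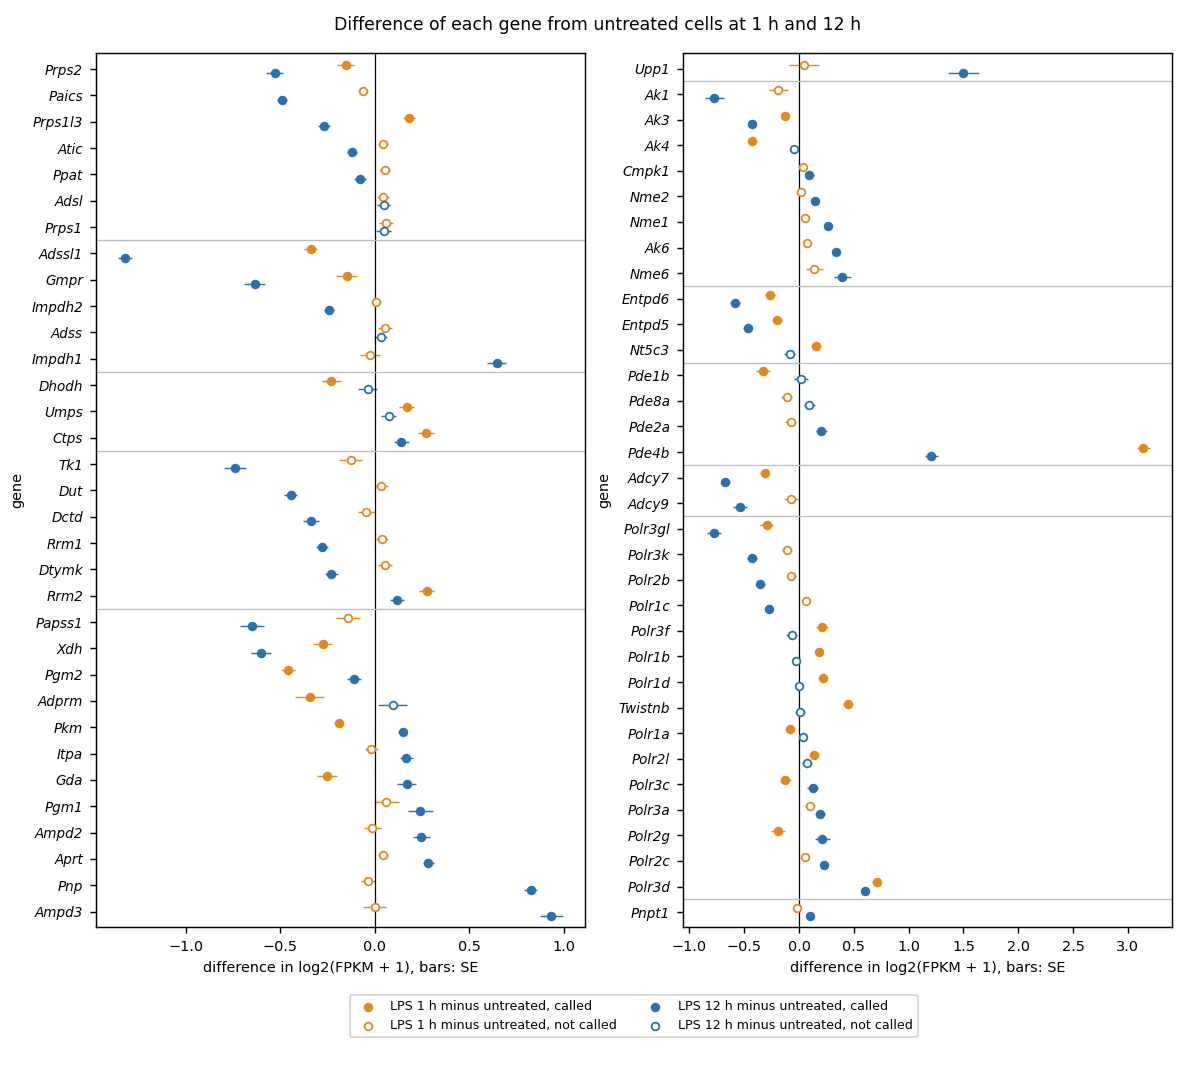
Points are differences from untreated cells in log2(FPKM + 1) for 67 of the 68 genes, with bars for 1 SE, at 1 h (orange) and 12 h (blue); filled points passed an adjusted p of 0.05 and open points did not. The panels have different horizontal scales, since Pde4b reaches 3.14 and Upp1 1.5, while most points lie between -0.5 and 0.5.

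By their order of calls over the 3 comparisons, 15 genes were not called at 1 h and were higher later, among them Pnp, Ampd3, Aprt and Impdh1, and 15 were not called at 1 h and were lower later, among them Atic, Dut and Dctd. These are 22.1% each of the 68 genes, against 16.5% and 16.2% of all tested genes. Another 9 were lower at 1 h and lower again at 12 h (13.2% against 14.5%), including Adssl1, Adcy7 and Xdh. A call as higher at 1 h, none at 12 h against untreated cells and a fall between the times was seen in 7 (10.3% against 5.21%), among them Umps, Nt5c3, Polr1b, Polr1d, Polr3f and Twistnb. The reverse was seen in 5 (7.35% against 5.87%), namely Pde1b, Dhodh, Ak4, Adprm and Polr1a. A gene not called in a comparison may still have differed there, several of these calls change with the setting, as given for Umps, Polr1a, Polr1b, Polr1d and Polr3f, and these 3 comparisons share samples.

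**Figure D5:**
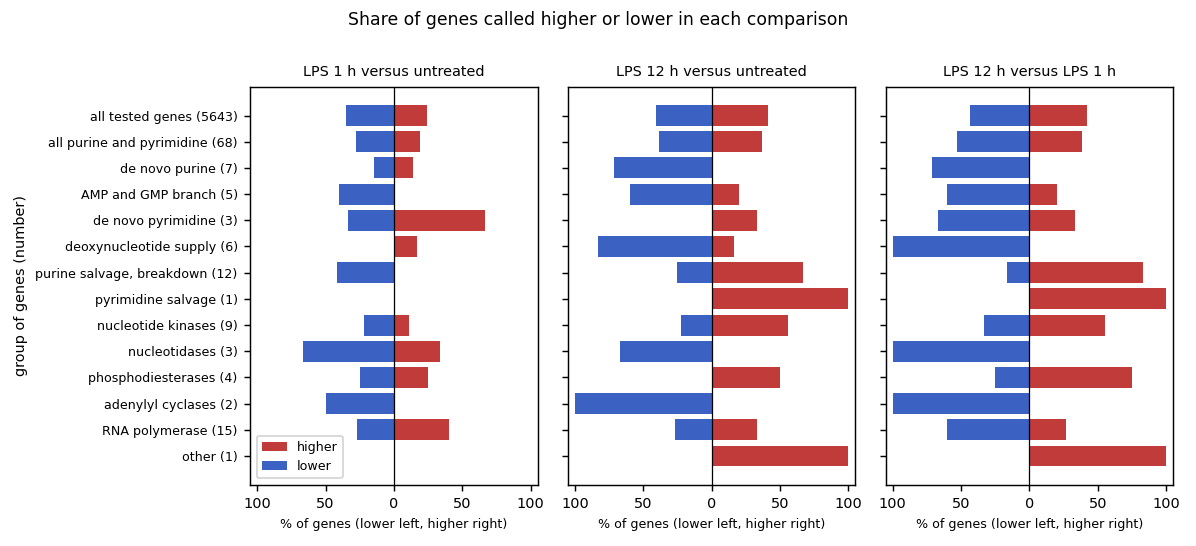
Bars give the share (%) of genes called higher (right, red) and lower (left, blue) at an adjusted p under 0.05 in each role, number of genes in parentheses, and in all tested genes, for the 3 comparisons. At 12 h against untreated cells, de novo purine synthesis and deoxynucleotide supply are mostly blue and purine salvage and breakdown mostly red; roles of 1 to 3 genes give shares in coarse steps.

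Folate and serine metabolism supplies the one-carbon units of purine and thymidylate synthesis. Of 20 genes listed for it, 15 were tested, of which 2 were higher and 3 lower at 1 h and 11 higher and 3 lower at 12 h (8 and 3 under quantile normalization), with a median difference of 0.15 at 12 h. Its called share was 33.3% at 1 h and 93.3% at 12 h, against 59.0% and 81.7% of all tested genes, of which 41.1% were higher at 12 h. Mthfd2, the mitochondrial dehydrogenase of this pathway, had 48.4, 48.0 and 49.2 FPKM untreated, 57.0, 55.5 and 50.2 at 1 h and 115, 116 and 109.6 at 12 h. Its 12 h rise was 1.21 ± 0.042 (SE, adjusted p = 2.87e-12). Psph, the last enzyme of serine synthesis, rose by 0.95, while Mthfd1, the cytosolic enzyme that makes the one-carbon donor of purine synthesis, fell by 0.25.

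The 9 pathway genes under 1 FPKM were not tested. Cda, the cytidine deaminase, had 0.552, 0.771 and 0.682 FPKM untreated, 0.471, 0.425 and 0.547 at 1 h and 1.66, 1.15 and 1.40 at 12 h. Urah, which hydrolyses a product of urate, was listed at 0 in the 6 untreated and 1 h libraries and at 0.941, 0.730 and 1.63 FPKM at 12 h. Ak8 had 1.29, 1.35 and 1.06 FPKM untreated and 0.244, 0.434 and 0.353 at 12 h, Hddc3 1.06, 1.24 and 0.960 and 0.339, 0.521 and 0.556, and Pde7b 0.550, 0.530 and 0.436 and 0.217, 0.210 and 0.162. In each of these 5 genes the 12 h libraries did not overlap with the untreated ones, as in 82.8% of all tested genes. Npr1, Ak7, Gucy1a2 and Pde6a were at or below 0.1003 FPKM in every library. Between 12 h and untreated libraries, Npr1, Ak7 and Gucy1a2 did not overlap either, and Pde6a did.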

How the data were processed

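BV2 libraries (3 groups of 3) were made with a stranded mRNA kit, per the labels' protocols. Per the submitters' processing notes, the tools were HISAT2, Cufflinks, HTSeq, DESeq and Trimmomatic, with neither role nor version given, and the build was GRCh38, a human one, although the genes are mouse; the build behind the values is unclear, so no gene position was taken from the files. The authors deposited 1 table of FPKM per gene, with a p-value, a q-value (at most 0.09993, so genes were selected on these samples), a score that ranks genes and a flag; only FPKM and pathway names were used. The table has 0 unmapped sample columns.

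Log2(FPKM + 1) was fitted, for genes averaging 1 FPKM or more, with limma 3.58.1 in R 4.3.3 (1 mean per group, 3 contrasts, F test, eBayes with trend) and checked on simulated data. Members and gene lists were chosen with earlier results of these data known, and gene pairs after their values were seen. Genes named in full are the 8 largest called increases and decreases per contrast with groups that do not overlap, and fixed pathway steps (such as Ppat, Umps, Rrm1, Dut, Aprt); the rest have brief values, and 1 of the 68 genes enters the counts but is not reported by itself. Alternatives were pseudocounts of 0.1 and 0.5, no filter and a mean of at least 5 FPKM, quantile normalization, array weights, eBayes without trend, scaling by the median of ratios, a block for the library number, fits on only the 6 libraries of a contrast, adjustment over 21878 genes implied by the deposited ranks, and each library left out. Start regions are from RefSeq (GRCm38.p6), matched by gene ID. Python 3.11.15 was used for sequences and figures.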

Additional observations from a re-analysis of the deposited data

How the results depend on the processing

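The counts of called genes over all 68 stayed within 1.5 times under every alternative run. Those of smaller groups did not: under quantile normalization, lower kinases at 12 h went from 2 to 6, higher RNA polymerase subunits at 12 h from 5 to 3 and higher cell cycle markers at 1 h from 10 to 4. Leaving out 1 library at a time gave 11 to 14 higher and 16 to 19 lower genes at 1 h, 22 to 26 and 24 to 27 at 12 h, and 25 to 26 and 33 to 36 from 1 h to 12 h, with 62 to 64 differing among the 3 groups. Residual correlations ran from -0.0666 to 0.128 between same-numbered libraries of different groups, and from -0.146 to 0.138 between differently numbered ones. No sign of pairing by number was seen, but with 3 libraries per group this check cannot exclude a shared culture or batch. With the library number as a replicate block the counts were 13 and 18 at 1 h, 25 and 26 at 12 h, 26 and 36 from 1 h to 12 h, and 64 by the F test. Adjustment over 21878 genes gave 11 and 15, 22 and 24, 25 and 34, and 62.

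Quantile normalization gave 13 and 25 at 1 h, 17 and 35 at 12 h and 24 and 37 between them, and was the setting that turned the sign of differences called with or without it. Among the genes named here, these were at 1 h Impdh2 (-0.091), Nme2 (-0.11) and Rrm1 (-0.077); at 12 h Adss (-0.12), Cmpk1 (-0.10), Nme2 (-0.11), Pkm (-0.17), Pnpt1 (-0.0053), Prps1 (-0.098) and Rrm2 (-0.015); and from 1 h to 12 h Pkm (-0.016). The cause was not tested. It also turned 1 h differences that were not called either way, such as those of Adcy9 (-0.077 to 0.080) and Upp1 (0.044 to -0.088). Over all genes it moved the median at 12 h from 0.030 to -0.018. Its counts over all 5643 tested genes were 1264 higher and 2012 lower at 1 h, and 2129 and 2453 at 12 h. From 1 h to 12 h they were 2248 and 2525. Among the genes named here, with 1 library left out at a time, 6 calls were lost at 1 h (Gmpr, Nt5c3, Polr1a, Polr2g, Polr2l, Polr3c), 6 at 12 h (Cmpk1, Pgm2, Pnpt1, Polr3c, Ppat, Rrm2) and 4 from 1 h to 12 h (Ctps, Pgm1, Polr3d, Umps). The table gives FPKM and no counts, so depth is known only roughly and the level of low genes such as Upp1 depends on the pseudocount.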

Other observations

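A further list holds genes that sense or carry extracellular nucleotides and nucleosides. Of its 23 listed receptors, channels and transporters, 9 were tested, of which 2 were higher and 4 lower at 1 h, and 4 were higher and 5 lower at 12 h. The called shares of 66.7% and 100% stand against 59.0% and 81.7% of all tested genes. These counts include P2ry13, with 1.42 ± 0.194 FPKM untreated, 1.27 ± 0.465 at 1 h and 0.368 ± 0.116 at 12 h. Its mean of 1.02 FPKM over all libraries passed the limit only through the untreated and 1 h groups. Its lower value at 12 h is therefore a description with no test. P2ry2, a receptor for ATP and UTP, had 4.62, 4.87 and 5.26 FPKM untreated, 9.26, 9.19 and 8.90 at 1 h and 12.3, 13.4 and 12.5 at 12 h, a rise of 1.21 ± 0.049 (SE, adjusted p = 1.76e-11) by 12 h (limma). Adora2b, an adenosine receptor, rose at 1 h from 2.66 ± 0.195 to 5.21 ± 0.391 FPKM and stood at 5.13 ± 0.309 at 12 h. P2rx7, the ATP-gated channel, stepped down from 8.16 ± 0.165 to 6.41 ± 0.1004 and 4.11 ± 0.163 FPKM, and Slc29a3, a nucleoside transporter of lysosomes, from 16.9 ± 0.863 to 12.2 ± 0.284 and 7.96 ± 0.381. P2ry6, the receptor for UDP, was lowest at 1 h, with 4.18 ± 0.171 FPKM against 6.52 ± 0.146 untreated and 5.43 ± 0.462 at 12 h.

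Of 13 listed transcription factors known to bind genes of nucleotide synthesis, 10 were tested, and 5 were higher and 3 lower at 1 h, and 4 higher and 4 lower at 12 h (3 and 4 under quantile normalization). The called share was 80% at both times, against 59.0% and 81.7% of all tested genes. Myc had 0.509, 0.531 and 0.226 FPKM untreated, 1.98, 1.87 and 2.34 at 1 h and 0.742, 0.413 and 0.657 at 12 h. Its mean over all libraries passed the limit of 1 FPKM only through those of 1 h. The difference of Myc at 1 h is therefore a description with no test, although the counts and shares above include it. Mxd4, of the same network, fell from 8.95 ± 0.945 to 1.12 ± 0.0671 FPKM at 12 h. Atf4, which activates serine and one-carbon genes, rose from 198 ± 2.76 to 256 ± 9.33 and 477 ± 4.26 FPKM. Any relation of these levels to those of the 68 genes was not tested.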
